A study of Mus musculus with 8 samples.

Results

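Aminoacyl-tRNA synthetases are the enzymes that join each amino acid to its tRNA, and the genes described here are 38 of the 16133 genes in the deposited expression table. They were chosen by name: 20 genes for enzymes of the cytosol, 16 for enzymes of the mitochondrion, whose symbols end in 2, and the scaffold genes Aimp1 and Aimp2. All 38 listed genes were found in the table. The livers came from METTL14Alb mice, here KO, in which the m6A writer subunit METTL14 is deleted in the liver, and from METTL14f/f mice, here WT, which carry the floxed gene without the deletion. Both genotypes had been injected with tunicamycin, an inhibitor of N-linked glycosylation that causes stress of the endoplasmic reticulum, at 2 mg/kg for 24 hours, and livers without tunicamycin were not analysed here. The labels name the driver of the deletion only by the suffix Alb. Libraries were made from polyadenylated RNA (input) and from RNA pulled down with an antibody to N6-methyladenosine (m6A, immunoprecipitated), 2 of each kind per genotype. Nothing in the labels tells whether the pair of libraries of a genotype stands for separate mice, so the p-values reflect the spread between libraries alone, which may be technical.

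The cytosolic enzymes charge tRNAs for translation on cytosolic ribosomes, and a second, nuclear-encoded set charges the tRNAs of mitochondrial ribosomes. Glycine and lysine are exceptions in mammals, since Gars and Kars each give both the cytosolic and the mitochondrial enzyme. Several cytosolic enzymes sit in a multi-synthetase complex held together by scaffold proteins that include the products of Aimp1 and Aimp2. In mouse fibroblasts many cytosolic synthetase genes are known targets of ATF4, the transcription factor of the integrated stress response, which binds the C/EBP-ATF response element.

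Estimated input depth was 12664878 and 12316145 reads in the KO libraries and 16815280 and 13503039 reads in the WT libraries. The table does not name the genotype on top of its fold change, and the peak lists were used to read it as KO over WT. Of 347 genes with a mean of at least 100 and a log2 value above 2 in the authors' deposited table, 156 held peaks only in KO and 0 only in WT, and of 403 genes below -2, 30 held peaks only in KO and 46 only in WT. The targeted gene, Mettl14, gave normalized counts of 64.6 and 62.0 for KO and of 79.8 and 99.7 for WT, and it was not called lower (log2 change -0.50 ± 0.41 SE in the authors' deposited table, with DESeq2's adjusted p at 0.342). Of 10 hepatocyte markers 7 were called lower and 2 higher in the authors' deposited table. Hnf4a, a transcription factor of hepatocyte identity and the only one of them with recovered counts, had 4182 and 4857 normalized counts in KO and 12904 and 11673 in WT, so the tissue label was met in both genotypes. Markers of cholangiocytes and progenitors were called higher for 6 of 7 genes, with summed normalized counts of 3281 to 4280 in KO libraries and 647 to 792 in WT libraries. Of these, Cftr was at 0 in both WT libraries and Krt7 in 1. Stellate cell and fibroblast markers were called higher for 5 of 8 genes, with sums of 7018 to 9797 in KO and 3085 to 3926 in WT. Markers of proliferating cells were called higher for 3 of 4 genes, with sums of 306 to 607 in KO and 9.43 to 19.4 in WT, and Ccnb1 was at 0 in both WT libraries. Macrophage markers were called in both directions (1 higher and 2 lower of 7). Cd68 had 2023 and 2665 normalized counts in KO and 168 and 207 in WT. Its log2 change in the authors' deposited table was 3.65, against -1.39 for Clec4f and -1.03 for Vsig4. Endothelial markers (0 higher and 1 lower of 6, with 1 higher at an unadjusted p under 0.05) gave few calls. Lymphocyte and neutrophil markers gave none (0 called of 6 by DESeq2, and 0 at an unadjusted p under 0.05). Of all 14257 genes tested, 20.4% were called higher and 22.2% lower. In bulk liver RNA, fewer cells of a type and less RNA per cell cannot be told apart, and the part of cell makeup in the synthetase values below was not tested.

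The response element bound by ATF4 together with C/EBP proteins has the core TGATGNAA, with the reverse complement TTNCATCA, and both strands of RefSeq promoter windows (build GRCm38.p6, 250 bases before to 50 after the annotated start) were searched for it. Windows were matched for 29 of the 38 genes. The core was found in 5 of 13 cytosolic genes (Aars, Gars, Iars, Tars and Yars), in 0 of 14 mitochondrial genes and in 0 of 2 scaffold genes. Of all 27025 genes with such a window, in the expression table or not, 4.51% held it. Of the 12049 among them in the expression table, 2.97% did. A match describes these letters and is not a measured binding site. The 30 bases around 1 match in each of the 5 genes are shown because they are what the matched genes share, with the core in capitals.
Aars, chr8:111033840-111033869, plus strand, core from position 10: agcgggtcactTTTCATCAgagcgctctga
Gars, chr6:55037960-55037989, plus strand, core from position -30: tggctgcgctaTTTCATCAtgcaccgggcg
Iars, chr13:49682126-49682155, plus strand, core from position 8: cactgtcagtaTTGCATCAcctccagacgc
Tars, chr15:11399655-11399684, minus strand, core from position -15: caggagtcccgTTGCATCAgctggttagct
Yars, chr4:129189895-129189924, plus strand, core from position 4: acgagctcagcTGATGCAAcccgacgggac

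Positions count from the annotated start, with the first transcribed base as 1. Of the other genes with the core, Iars was called higher in KO, Aars was called lower, and Tars and Yars were not called. Any link between the core and the changes was not tested. The 250 bases upstream of the start are given for Gars and Kars, the genes that serve both compartments and were called in opposite directions: Gars holds the core in this window and Kars does not.
Gars, chr6:55037751-55038000, plus strand: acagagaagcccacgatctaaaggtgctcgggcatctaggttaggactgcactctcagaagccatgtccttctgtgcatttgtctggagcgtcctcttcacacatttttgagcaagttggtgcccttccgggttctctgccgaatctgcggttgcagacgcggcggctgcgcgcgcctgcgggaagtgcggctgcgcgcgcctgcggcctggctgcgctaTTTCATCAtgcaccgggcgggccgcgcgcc
Kars, chr8:112011355-112011604, minus strand: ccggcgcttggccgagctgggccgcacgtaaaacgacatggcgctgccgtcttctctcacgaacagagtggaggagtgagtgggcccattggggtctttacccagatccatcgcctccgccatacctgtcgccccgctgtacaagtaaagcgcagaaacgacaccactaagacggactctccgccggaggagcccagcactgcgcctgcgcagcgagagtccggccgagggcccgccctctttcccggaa

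The synthetase genes did not move as one group between KO and WT liver. In the authors' deposited table, 9 of the 38 genes were called higher in KO and 11 lower at an adjusted p under 0.05, with a median log2 change of 0.07. Over all 14257 genes tested the table called 42.5% in either direction, 20.4% higher and 22.2% lower, with a median of 0.05. Among the 9202 genes with a mean of at least 100, it called 52.2% (20.8% higher and 31.4% lower), close to the 52.6% of the synthetase genes. Of the 20 cytosolic genes, 5 were called higher and 6 lower in the authors' deposited table, with a median of 0.16 and a range of -0.76 to 1.20. Of the 16 mitochondrial genes, 4 were called higher and 5 lower there, with a median of -0.03 and a range of -2.01 to 1.49. Without Lars2, whose mean stood far above the rest of its class, 4 were called higher and 4 lower, with a median of 0.004. Changes were mostly small, since 33 of the 38 genes stayed within 2-fold between genotypes. So did most genes: 9083 of the 14257 tested, and 6511 of the 9202 with a mean of at least 100. Counts of single libraries were recovered for 37 of the genes, all but Lars2, and KO and WT libraries did not overlap for 33 of them (16 with KO above and 17 with KO below); of 12658 genes with a mean of at least 10, 78.9% did not overlap (40% above and 38.9% below). A second test, limma on the recovered counts of all genes, called 21.7% of 15944 genes higher and 20.3% lower. The direction of the small decreases rests on the authors' scaling. With libraries set to equal totals, the median log2 change of all genes in limma was 0.87, against 0.11 otherwise, and 51.2% of genes were called higher and 6.25% lower. Of the synthetase genes, limma then called 25 higher and 0 lower (1 lower at an unadjusted p under 0.05). Changes are therefore relative to the bulk of the genes, and Eprs, Kars, Mars, Qars, Dars, Aars, Farsa, Farsb, Nars, Aars2, Hars2, Sars2 and Aimp1, lower in KO under the authors' scaling, took the opposite sign under equal totals. The calls also rested on the number of libraries. Limma called 10 synthetase genes higher and 11 lower with all 4 libraries, but 0 without KO A (6 higher and 8 lower at an unadjusted p under 0.05) and 0 without KO B (6 higher and 9 lower unadjusted). Of all genes, 4.68% were then called higher and 0.527% lower without KO A, and 5.11% and 0.715% without KO B. Without WT A it called 5 synthetase genes higher and 6 lower (12.5% and 11.6% of all genes), and without WT B 5 higher and 4 lower (12.6% and 11.8% of all genes). Normalized counts below are given for KO A and KO B, then WT A and WT B, and letters name libraries whose replicate number is not known.

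**Figure D1:**
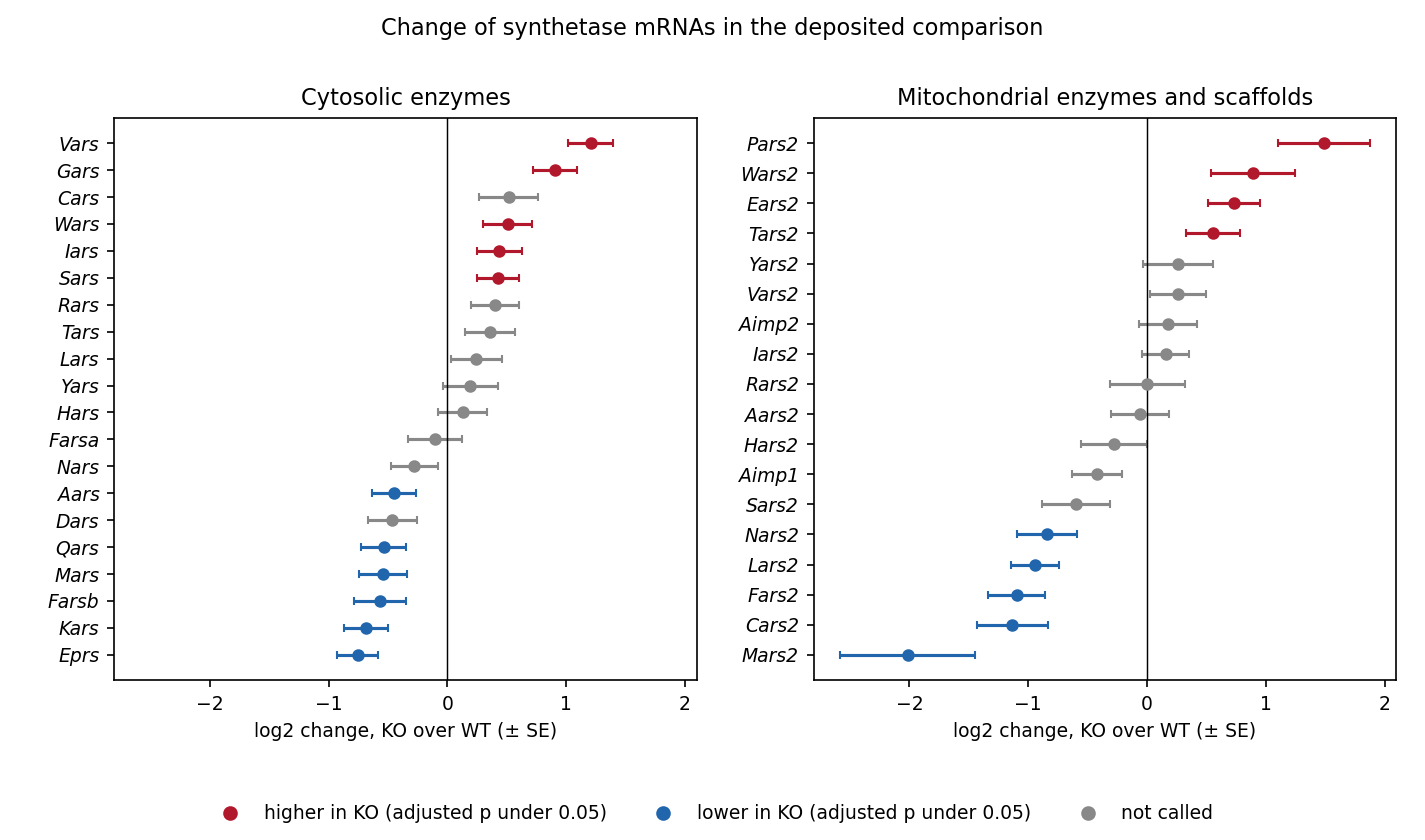
Log2 change of each synthetase mRNA, KO over WT, in the authors' deposited table (points, with bars of 1 SE), for cytosolic enzymes on the left and for mitochondrial enzymes and scaffolds on the right. Red points were called higher and blue points lower at an adjusted p under 0.05, and both classes hold genes on either side of 0, from -0.76 to 1.20 in the cytosolic class and from -2.01 to 1.49 in the mitochondrial class.

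Among the 8 cytosolic enzymes of the multi-synthetase complex, 4 were called lower in KO liver and 1 higher in the authors' deposited table, with a median log2 change of -0.50. The 12 cytosolic enzymes outside the complex had 4 called higher and 2 lower, with a median of 0.28. Among all genes with a mean of at least 100, 20.8% were called higher and 31.4% lower. Eprs, on chromosome 1 from 185361417 to 185428360 (GRCm38), encodes the enzyme that charges both glutamate and proline tRNAs. Its normalized counts were 3349 and 3742 in KO libraries, against 5877 and 6100 in WT libraries. Both KO libraries lay below both WT libraries, and the log2 change in the authors' deposited table was -0.76 ± 0.18 (SE, adjusted p = 9.05e-05). Kars, the lysine enzyme of both compartments (chromosome 8, 111993439 to 112011354), had 1405 and 1425 in KO and 2245 and 2306 in WT, with libraries of each genotype lying close together. Its log2 change in the authors' deposited table was -0.69 ± 0.18 (SE, adjusted p = 6.78e-04).

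Mars, the methionine enzyme that also charges the initiator tRNA, had 792 and 936 normalized counts in KO libraries and 1266 and 1247 in WT libraries. The groups did not overlap, and the authors' deposited table gave a log2 change of -0.54 ± 0.20 (SE, adjusted p = 0.0195). The annotated Mars gene shares 71 bases with Ddit3, and no source used here gives the strand setting of the counting. Qars, the glutamine enzyme, had 1169 and 1291 in KO and 1845 and 1716 in WT, without overlap, and a log2 change of -0.53 ± 0.19 (SE, adjusted p = 0.0139) in the authors' deposited table. Dars, the aspartate enzyme, had 739 and 880 in KO and 1182 and 1050 in WT. Its KO libraries also lay below its WT libraries, but its change of -0.46 in the authors' deposited table was not called (adjusted p = 0.0577), whereas limma called it (adjusted p = 0.0439).

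The 3 other enzymes of the complex had higher counts in KO. Iars, the isoleucine enzyme with the response-element core at position 8, had 1557 and 1467 normalized counts in KO libraries and 1123 and 1112 in WT libraries. Its log2 change of 0.44 ± 0.19 (SE) in the authors' deposited table passed the threshold narrowly (adjusted p = 0.0498). Rars, the arginine enzyme, had 1053 and 1137 in KO and 780 and 881 in WT, and its change of 0.40 in the authors' deposited table was not called (adjusted p = 0.0969), while limma called it (adjusted p = 0.0489). Lars, the leucine enzyme, had 1334 and 1275 in KO and 935 and 1275 in WT. KO B and WT B of Lars were nearly level, and its change of 0.24 was not called in the authors' deposited table (adjusted p = 0.385). The scaffold Aimp1 had 575 and 602 normalized counts in KO and 824 and 753 in WT, a log2 change of -0.42 that the authors' deposited table did not call (adjusted p = 0.0906) and limma did (adjusted p = 0.0355). The scaffold Aimp2 had 356 and 344 in KO and 299 and 321 in WT, a change that the authors' deposited table gave as 0.18 (adjusted p = 0.598). Neither scaffold gene overlapped between genotypes, and they lay on opposite sides of 0.

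Outside the complex, the highest change of the cytosolic class belonged to Vars, the valine enzyme (chromosome 17, 35000907 to 35016329). Vars had 2380 and 2620 normalized counts in KO libraries, against 1140 and 1029 in WT libraries. The groups lay far apart, at 2.30-fold in the authors' deposited table (log2 change 1.20 ± 0.19 SE, adjusted p = 1.97e-09). Gars, the glycine enzyme of both compartments (chromosome 6, 55038001 to 55079504), had 2912 and 2915 in KO and 1660 and 1446 in WT. The KO libraries were nearly identical and above both WT libraries, with a log2 change of 0.91 ± 0.19 (SE, adjusted p = 6.13e-06) in the authors' deposited table. Gars and Kars, the genes that serve both compartments, were thus called in opposite directions.

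Wars, the tryptophan enzyme, had 1106 and 1043 normalized counts in KO libraries and 690 and 823 in WT libraries. Sars, the serine enzyme, had 3096 and 3056 in KO and 2313 and 2254 in WT. Neither gene overlapped between genotypes, and the authors' deposited table called both higher, with log2 changes of 0.51 ± 0.21 (SE, adjusted p = 0.0344) for Wars and 0.43 ± 0.18 (SE, adjusted p = 0.0373) for Sars. Cars, the cysteine enzyme, had 459 and 505 in KO and 287 and 389 in WT, and Tars, the threonine enzyme, had 1038 and 1179 in KO and 767 and 966 in WT. In both genes the KO libraries lay above the WT libraries, yet neither was called in the authors' deposited table (log2 change 0.51, adjusted p = 0.0849 for Cars; 0.36, adjusted p = 0.170 for Tars).

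Aars, the alanine enzyme with a response-element core from position 10, had 5489 and 5386 normalized counts in KO libraries and 6603 and 8209 in WT libraries. The authors' deposited table called it lower, with a log2 change of -0.45 ± 0.19 (SE, adjusted p = 0.0397), but limma on the recovered counts did not (adjusted p = 0.1001). In limma its change was -0.28 without WT B and -0.59 without WT A, against -0.44 with all 4 libraries. The annotated Aars gene also shares 3974 bases with Ddx19b. Farsb encodes the beta subunit and Farsa the alpha subunit of the phenylalanine enzyme, which is built from both. Farsb had 422 and 444 in KO and 623 and 660 in WT, and the authors' deposited table called it lower (log2 change -0.57 ± 0.22 SE, adjusted p = 0.0241). The annotated Farsb gene shares 2332 bases with Sgpp2. Farsa had 423 and 398 in KO and 453 and 430 in WT, a log2 change of -0.10 in the authors' deposited table that was not called (adjusted p = 0.755). The difference between the changes of these subunits was not tested.

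The remaining cytosolic genes were not called. Nars, the asparagine enzyme, had 2772 and 2903 normalized counts in KO libraries and 2964 and 3924 in WT libraries, a log2 change that the authors' deposited table gave as -0.28 (adjusted p = 0.262). Hars, the histidine enzyme, had 1194 and 1377 in KO and 1054 and 1298 in WT. Yars, the tyrosine enzyme, had 850 and 621 in KO and 595 and 692 in WT. Hars and Yars overlapped between genotypes, and the authors' deposited table gave them changes of 0.13 and 0.19 (adjusted p = 0.659 and 0.543). By catalytic class, the 9 cytosolic class I enzymes had 3 called higher and 2 lower (median 0.40), and the 10 class II enzymes 2 higher and 3 lower (median -0.19), with Eprs, which holds both folds, left out. Of all genes with a mean of at least 100, 20.8% were called higher and 31.4% lower.

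**Figure D2:**
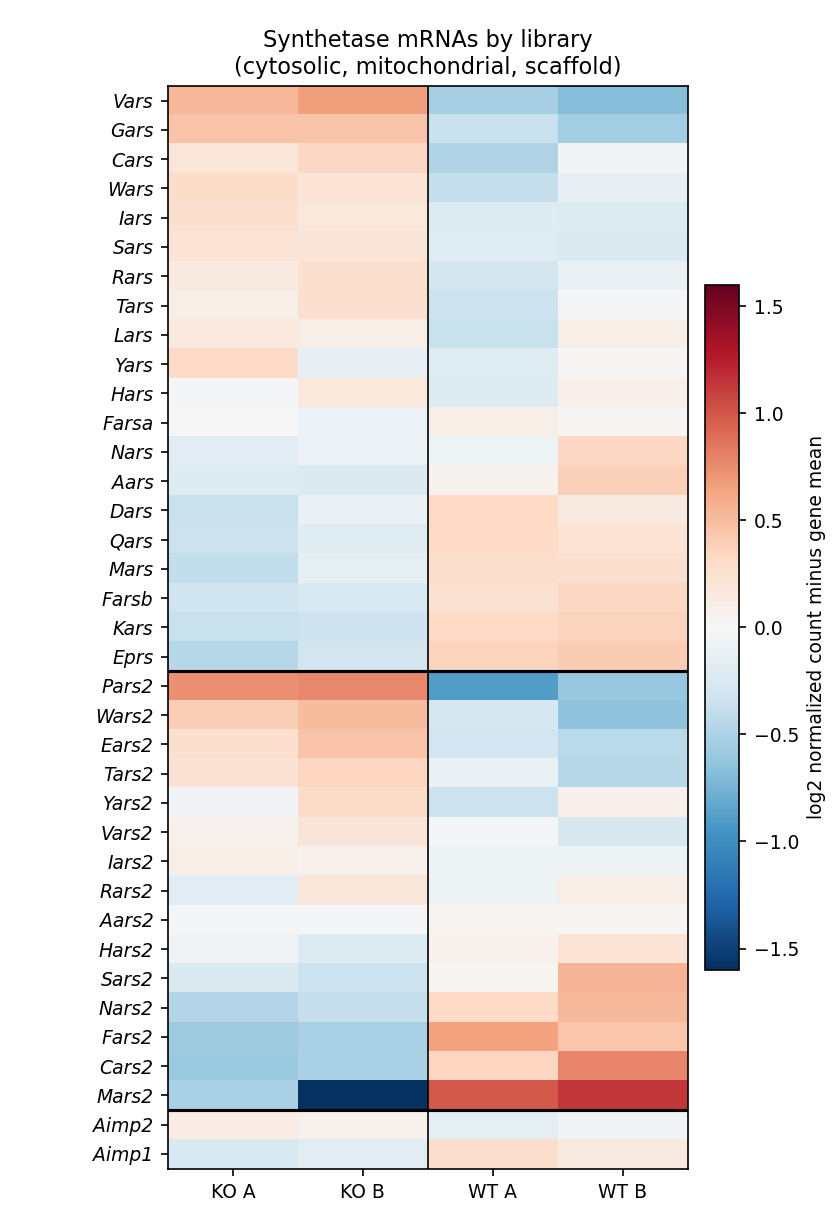
Log2 normalized count of each synthetase gene in the 4 input libraries minus the gene's mean over them, with KO A and KO B left of WT A and WT B (red above, blue below the mean), for the 37 genes with recovered counts. Vars and Pars2 are high in both KO libraries, Eprs and Mars2 are low in both, and WT A and WT B differ visibly for Lars, Cars and Nars.

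Of the cytosolic genes, Lars, Nars, Hars and Yars differed more between the WT libraries than between the genotypes. The log2 ratio of WT B over WT A was 0.45 for Lars, 0.44 for Cars, 0.40 for Nars, 0.33 for Tars, 0.31 for Aars and 0.30 for Hars. It was 0.25 for Wars and 0.22 for Yars. Over the whole cytosolic class it was positive for 12 of 20 genes, with a median of 0.07, and 50.5% of all genes with a mean of at least 10 and no library at 0 were higher in WT B. A list of ATF4 targets other than synthetases, Atf4 included, held 27 genes with recovered counts and a mean of at least 10. Slc7a11 was left out because it was at 0 in WT A. Of the rest, 21 were higher in WT B, with a median of 0.57. Atf4 itself had 2970 and 2989 normalized counts in KO libraries and 1750 and 3989 in WT libraries, and was not called in the authors' deposited table (log2 change 0.05, adjusted p = 0.902). The KO level of Atf4 thus lay between the WT libraries, and its part in the synthetase values was not tested.

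Mitochondrial enzymes spread wider than cytosolic ones. The median absolute log2 change in the authors' deposited table was 0.66 over the 16 mitochondrial genes and 0.45 over the 20 cytosolic genes, against 0.71 over all genes tested and 0.62 over genes with a mean of at least 100. Without Lars2 the mitochondrial value was 0.60. Counts were lower for most mitochondrial genes, which gives their changes larger errors. The lowest value belonged to Mars2, the mitochondrial methionine enzyme (chromosome 1, 55237177 to 55240058), with 23.1 and 11.1 normalized counts in KO libraries and 65.8 and 72.7 in WT libraries. Both KO libraries lay below both WT libraries, at low counts in every library, and the log2 change in the authors' deposited table was -2.01 ± 0.57 (SE, adjusted p = 0.00155). Cars2, the cysteine enzyme, had 127 and 133 in KO and 243 and 329 in WT, with a log2 change of -1.13 ± 0.30 (SE, adjusted p = 5.66e-04) in the authors' deposited table. Fars2, the phenylalanine enzyme, had 237 and 245 in KO and 550 and 479 in WT, with a log2 change of -1.09 ± 0.24 (SE, adjusted p = 2.89e-05) in the same authors' deposited table. The annotated Fars2 gene shares 20270 bases with the long noncoding RNA Gm40912. In the authors' deposited table Cars2 and Fars2 thus stood at 0.456 and 0.468 of their WT level.

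Nars2, the asparagine enzyme, had 214 and 229 normalized counts in KO libraries and 370 and 424 in WT libraries, and the authors' deposited table called it lower (log2 change -0.84 ± 0.25 SE, adjusted p = 0.00297). Lars2, the leucine enzyme, had a mean of 70112 in the authors' deposited table, too high for single counts to be recovered, and a log2 change of -0.94 ± 0.20 (SE, adjusted p = 1.47e-05). The annotated Lars2 gene shares 8819 bases with the long noncoding RNA Gm46137, and the counts of the pair may not be separate. The call for Lars2 therefore had no check by library. Its mean also stood far above the 909 of Iars2, the next highest mitochondrial gene. Whether all of these reads come from Lars2 mRNA was not tested.

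The mitochondrial genes called higher were led by Pars2, the proline enzyme (chromosome 4, 106651069 to 106655282), with 139 and 143 normalized counts in KO libraries and 45.3 and 55.2 in WT libraries. All KO values lay above all WT values, at 2.81-fold in the authors' deposited table (log2 change 1.49 ± 0.39 SE, adjusted p = 5.10e-04). Wars2, the tryptophan enzyme, had 149 and 162 in KO and 93.8 and 72.7 in WT, with a log2 change of 0.89 ± 0.35 (SE, adjusted p = 0.0287) in the authors' deposited table. Ears2, the glutamate enzyme, had 740 and 839 in KO and 495 and 455 in WT, with a log2 change of 0.73 ± 0.22 (SE, adjusted p = 0.00259) in the authors' deposited table. Tars2, the threonine enzyme, had 634 and 685 in KO and 504 and 393 in WT, with a log2 change of 0.55 ± 0.23 (SE, adjusted p = 0.0393) in the authors' deposited table. None of these 4 genes overlapped between genotypes, and neither did 78.9% of all genes with a mean of at least 10.

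The other 7 mitochondrial genes were not called, with log2 changes of -0.60 to 0.26 in the authors' deposited table. Iars2, the isoleucine enzyme, had 967 and 952 normalized counts in KO libraries and 860 and 859 in WT libraries, and Vars2, the valine enzyme, had 432 and 476 in KO and 410 and 347 in WT. Aars2, the alanine enzyme, had 316 and 316 in KO and 331 and 327 in WT. The authors' deposited table gave these 3 genes log2 changes of -0.06 to 0.26, although none of them overlapped between genotypes. Such lack of overlap was found for 78.9% of all genes with a mean of at least 10. Hars2, the histidine enzyme, had 215 and 192 in KO and 234 and 260 in WT, and Sars2, the serine enzyme, had 214 and 198 in KO and 258 and 366 in WT, where WT B stood apart. Yars2, the tyrosine enzyme, had 225 and 287 in KO and 182 and 245 in WT, and Rars2, the arginine enzyme, had 143 and 184 in KO and 153 and 172 in WT. Yars2 and Rars2 overlapped between genotypes.

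Cytosolic and mitochondrial enzymes for the same amino acid were set side by side in 17 pairs, in which Eprs stands against both Ears2 and Pars2 and Fars2 against both Farsa and Farsb. The cytosolic change was the greater in 11 pairs and the smaller in 6, with a median difference of 0.41 on the log2 scale. The widest gaps in that direction were 1.65 for Cars over Cars2, 1.47 for Mars over Mars2, then Lars over Lars2, and 1.03 for Sars over Sars2. The limit given above for the reads of Lars2 holds for its pair too. The gap ran the other way for Eprs, at -2.25 against Pars2 and -1.49 against Ears2. Both genes were called in the same direction in 3 pairs (Mars with Mars2, Farsb with Fars2, Wars with Wars2) and in opposite directions in the 2 pairs with Eprs.

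Ratios within a library leave out the scaling between libraries. The log2 ratio of Cars to Cars2 was 1.86 and 1.92 in KO libraries and 0.24 and 0.24 in WT libraries. The log2 ratio of Eprs to Pars2 was 4.59 and 4.71 in KO and 7.02 and 6.79 in WT. Such ratios depend on gene length as levels, so only their difference between libraries is read here, and in both pairs that difference was far wider than the spread within a genotype. Of the 16 pairs with counts, the ratio was above WT in both KO libraries for 10, below for 3 and overlapping for 3 (Tars, Wars and Yars with their mitochondrial partners). Pairs that share Eprs or Fars2 are not separate. The share for ratios of other gene pairs was not computed. For single genes with a mean of at least 10, 78.9% did not overlap, so lack of overlap was common. The gap between the class medians of log2 normalized counts, cytosolic minus mitochondrial, was 2.45 and 2.48 in KO libraries and 2.13 and 1.84 in WT libraries. KO and WT did not overlap, and Lars2, without recovered counts, was left out of the mitochondrial median. No such gap was computed for other sets of genes. With 2 libraries per genotype an exact permutation test could not pass the threshold, and none was run.

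**Figure D3:**
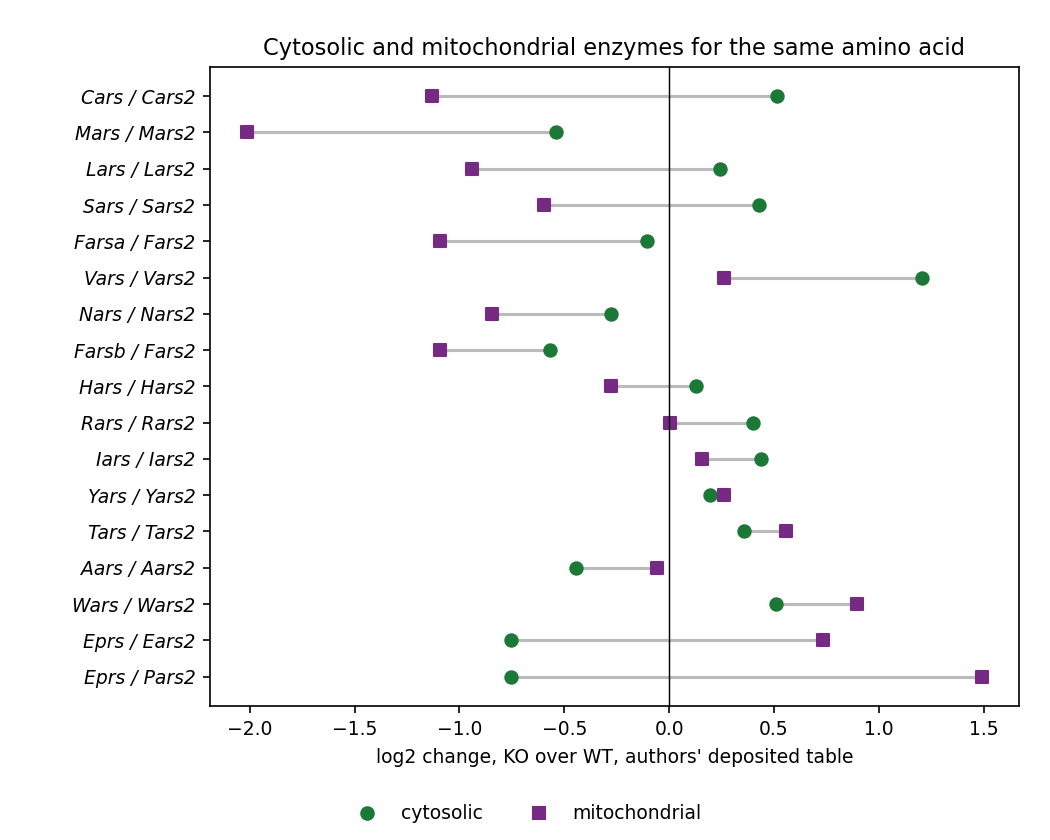
Log2 change, KO over WT, of the cytosolic (circle) and mitochondrial (square) enzyme for the same amino acid, joined by a line, from the authors' deposited table, ordered by the difference. Cars with Cars2 is at the top with a difference of 1.65 and Eprs with Pars2 at the bottom with -2.25.

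Other genes of tRNA charging and of the stress response were counted from lists. Beside these counts, the share of all 14257 tested genes called was 42.5% (20.4% higher and 22.2% lower). Of 15 charging partners and editing factors, 2 were called higher and 5 lower in the authors' deposited table, with a median log2 change of 0.02. Among those called were Gatb (-0.80, adjusted p = 0.00295) and Gatc (0.67, adjusted p = 0.00962) in the authors' deposited table, subunits of the mitochondrial amidotransferase that makes glutaminyl-tRNA in place of a mitochondrial glutamine enzyme. Gatb had 288 and 280 normalized counts in KO libraries and 452 and 540 in WT libraries. Gatb and Gatc, which act in 1 enzyme, were called in opposite directions.

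Of 29 tested genes of tRNA processing and export, 6 were called higher and 4 lower in the authors' deposited table, with a median of -0.06. Those with the smallest p were Pop7 (1.95), a subunit of RNase P, Rpp38 (1.84), another subunit, and Hsd17b10 (-1.36), a subunit of mitochondrial RNase P, as log2 changes of the authors' deposited table, and Pus1, a tRNA pseudouridine synthase, which had 706 and 884 normalized counts in KO and 287 and 276 in WT. Of the 32 listed ATF4 targets other than synthetases, Atf4 included, 12 were called higher and 7 lower there, with a median of 0.77. Those with the smallest p lay in both directions, with log2 changes in the authors' deposited table of 3.01 for Nupr1, -2.34 for Atf5, -2.37 for Herpud1 and -2.01 for Cth. Of 10 sensors and regulators of the eIF2 pathway, 2 were called higher and 2 lower (median 0.06): Ppp1r15a, which directs dephosphorylation of eIF2 (1.63), the kinase Eif2ak4, which senses uncharged tRNA (1.29), the haem-regulated kinase Eif2ak1 (-1.12) and the exchange factor subunit Eif2b5 (-0.66), as log2 changes of the authors' deposited table. Normalized counts of Eif2ak4 were 228 and 220 in KO and 85.2 and 98.3 in WT.

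Every cytosolic synthetase gene had at least 1 m6A peak in the KO list, and 13 of 20 had one in the WT list. The lists held 12290 peaks for KO and 5586 for WT, 1 list per genotype, so there was no replicate check. Of all genes measured, 36.3% had a peak in the KO list and 18.5% in the WT list. Peaks are called more readily in abundant mRNAs, and among genes with a mean of 400 to 7000, the range that holds the cytosolic genes, the shares were 80.5% and 48.4%. Peaks only in the KO list were found for 7 cytosolic genes (Cars, Iars, Lars, Qars, Sars, Vars and Wars), against 34.7% of genes in that range and 19.4% of all genes, and peaks only in the WT list for 0 (2.62% in that range, 1.59% of all genes).

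The peak lists were then set beside the expression calls. Of the 5 cytosolic genes called higher in KO, 4 had peaks only in KO and 1 (Gars) in both lists. Of the 6 called lower, 5 had peaks in both lists and 1 (Qars) only in KO. Of the 9 not called, 7 had peaks in both and 2 only in KO. The same split over all genes in that range of means was 54.2% only in KO among genes called higher, 23% among genes called lower and 38.4% among genes not called. Peaks in both lists were found for 30.7% of genes called higher, 55.8% of genes called lower and 41.9% of genes not called. The direction of the fold change was itself read from the peak lists, through the excess of KO-only peaks among genes with high log2 values, so the excess of such peaks among genes called higher was set by that reading and nothing is drawn from it. The input level also enters both measures, and its part in the peak calls was not tested.

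Mitochondrial genes had a peak in the KO list for 9 of 16 and in the WT list for 1 of 16, Nars2. Among all genes with a mean of 40 to 1000, which covers all of them but Lars2, 44.3% had a peak in the KO list and 16.6% in the WT list, 30.1% only in KO and 2.44% only in WT, against 8 and 0 of the mitochondrial genes. Cars2, Ears2, Mars2, Pars2, Sars2, Vars2 and Wars2 had none in either list. Aimp1 and Aimp2 each had 1 peak, in the KO list alone.

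The synthetase genes held 52 peaks in the KO list and 21 in the WT list. Peaks that shared at least 1 base on the same strand made up 18 of the 52 KO peaks (34.6%) and 20 of the 21 WT peaks (95.2%). The 1 WT peak without a partner lay in Aars, at chr8:111053920-111053968 (mm10), with an enrichment of 4.22. The enrichment of a peak is the authors' own value and is read here within 1 list, so its values are not compared between KO and WT. In the KO list the enrichment of synthetase peaks ran from 2.58 to 118, with a median of 14.7, against a median of 13.1 over all KO peaks. In the WT list it ran from 4.22 to 506, with a median of 89.9, against 24.2 over all WT peaks and 27.1 over the WT peaks of genes with a mean of 400 to 7000.

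Of the 41 KO peaks that lay in cytosolic genes, 17 (41.5%) had their 5′ edge within 500 bases of an annotated start, 15 lay inside the gene and 9 (22.0%) ended within 500 bases of its end. Over all placed peaks of the KO list these shares were 34.3% at the start and 11.2% at the end. In the WT list 11 of 20 cytosolic peaks (55%) were at the start, against 33.7% of all placed peaks, and 3 at the end. The start peaks of the KO list belonged to 17 different cytosolic genes, all but Cars, Iars and Qars. Its 9 end peaks belonged to 7 cytosolic genes, with several in Aars. Over all genes, 1322 end peaks of that list belonged to 1136 genes.

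**Figure D4:**
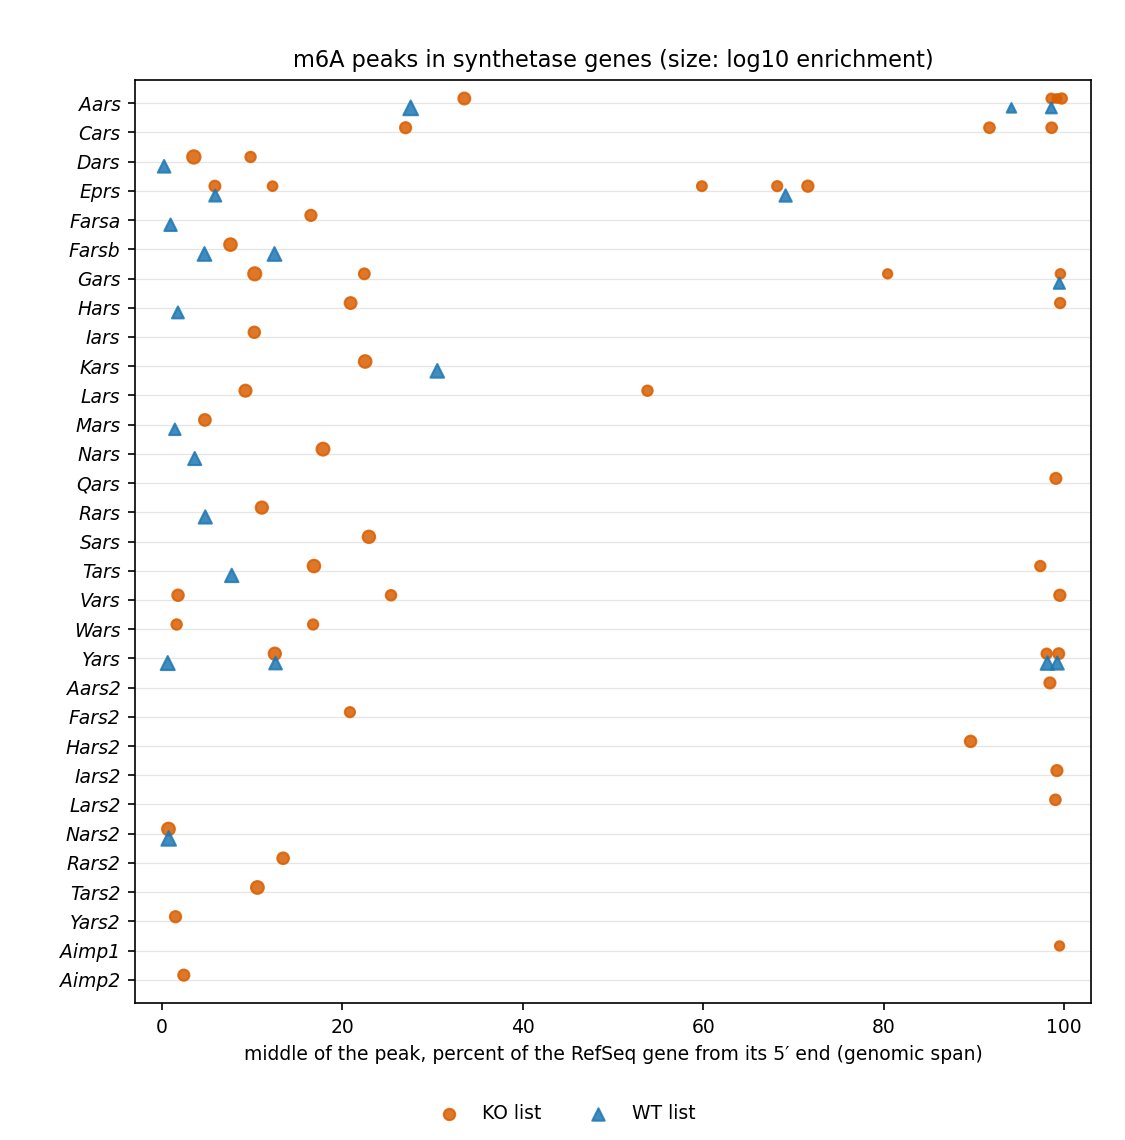
Middle of each m6A peak in the synthetase genes, as percent of the annotated gene from its 5′ end along the genome, introns included (circles for the KO list above triangles for the WT list; larger symbols mean a higher enrichment on a log10 scale). Peaks gather toward the 5′ and 3′ ends of the genes, and 20 of the 21 WT peaks overlap a KO peak.

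Among single peaks, the highest enrichment in the KO list belonged to Dars, at 118 for a spliced peak of 3 blocks that began 98 bases from its start (chr1:128413732-128417318), followed by Gars at 95.7 (chr6:55038102-55046429), which began 101 bases from its start. The Gars start peak had no counterpart in the WT list, where Gars had only a peak at its 3′ end (chr6:55079257-55079305, enrichment 16.2). In the WT list the highest value belonged to Aars, at 506 for a peak of 2 blocks (chr8:111033942-111036932) that began 100 bases from its start and downstream of the core shown above. Its partner in the KO list had the same first base. Kars had a peak in both lists, spanning 5 blocks in KO and 3 blocks in WT. Nars2 was the mitochondrial gene with a peak in both lists, 50 bases from its start in KO and 100 bases in WT. Yars had the most peaks in the WT list, 4, of which 2 lay at its start, and Eprs the most in the KO list, 5, of which 4 lay inside the gene. Lars2 had 1 peak in the KO list, 857 bases before its annotated end, with the weakest deposited p of the synthetase peaks (8.12e-04).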

How the data were processed

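Input and m6A-precipitated polyadenylated RNA of mouse liver was sequenced in 8 libraries. The submitters' processing notes name HISAT2 2.1.0, mm10 and DESeq2 1.18.1. Not given in the sources used here were read counter, annotation and peak caller. The authors' table holds, for each gene, a signal (counts divided by size factors, averaged over 4 input libraries), a log2 fold change with its standard error, the Wald statistic as a score, and a p-value, raw and adjusted, per the file headers. Each deposited peak carries an enrichment, understood as a ratio of precipitated over input RNA, and a number between 0 and 1 understood as its p-value; whether the authors adjusted it is not stated.

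Genes were called at a deposited adjusted p under 0.05. For 15944 genes (98.8%) the deposited mean was resolved into the counts of the 4 libraries, as the whole numbers that, divided by size factors of 1.25, 1.18 (KO), 0.927 and 0.743 (WT), give each mean; the deposited fold change guided the search above a mean of 100, so there it is no independent check. For 3608 genes found from the mean alone, the median difference from the deposited log2 change was 1.02e-06. That check covers 2 of the 37 synthetase genes with counts. On simulated data 592 of 592 genes were recovered. The simulation used the same size factors and formula as the search, so it could not show errors in them. Genes without counts held 36.0% and 34.8% of estimated KO reads and 50.4% and 50.3% of WT reads. All recovered genes entered limma 3.58.1 (trend option) as log2(normalized count + 1). Peaks were matched by gene symbol and compared block by block; starts are the RefSeq gene or promoter-table start. Shares of peaks at starts and ends are of peaks whose gene has a RefSeq position.

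Values per library are given for called members with the 5 largest changes in each direction and class, members with a peak and the 2 most abundant uncalled members per class, and for others chosen after their values were seen; of other lists, up to 4 called genes with the smallest p, of which some are not reported here. Members and lists were chosen with earlier results of these data known. There were 0 per-sample columns left unmapped.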

Additional observations from a re-analysis of the deposited data

How the results depend on the processing

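Calls depended on scaling and on the number of libraries. With libraries scaled to equal totals in limma, the median change of all genes was 0.87, against 0.11 with the authors' size factors. Relative to that shift the synthetase medians stayed close, at 0.98 (cytosolic), 0.81 (mitochondrial) and 0.95 (all members), but calls became 13, 10 and 25 higher and 0 lower in each (51.2% of all genes higher, 6.25% lower). Signs turned for Aars (0.38), Dars (0.35), Eprs (0.063), Farsa (0.71), Farsb (0.25), Kars (0.14), Mars (0.28), Nars (0.55), Qars (0.29), Aars2 (0.76), Hars2 (0.54), Sars2 (0.24) and Aimp1 (0.40). Rars2, at 0.004 in the authors' deposited table, was -0.0056 in limma (-0.0057 and -0.0053 with other pseudocounts, -0.0071 with median-ratio scaling). With 1 library left out, Rars2 ran from -0.19 (KO B out; -0.091 with WT A out) to 0.18, Hars from -0.018 (WT A out) to 0.28 and Yars from -0.047 (KO A out) to 0.41. At an adjusted p under 0.01, cytosolic calls were 2 higher and 2 lower, mitochondrial 2 higher and 5 lower, and all members 4 higher and 7 lower (15.3% and 18.1% of all genes). Leaving out 1 library gave 0 to 4 cytosolic genes higher and 0 to 2 lower (median 0.0072 to 0.28), 0 to 3 mitochondrial genes higher and 0 to 4 lower (median -0.060 to 0.15), and 0 to 5 of all members higher and 0 to 6 lower (median -0.018 to 0.15). With either KO library left out, 0 members were called in limma, where the lone KO library is assumed to vary like WT; all genes then had 4.68% or 5.11% called higher and 0.527% or 0.715% lower. All 19 called members with counts kept their sign in these fits. Limma with the authors' size factors, other pseudocounts, median-ratio scaling or a filter at a mean of 10 kept every count of calls within 1.5 times. A limit on peak enrichment of at least 4 left the counts of cytosolic and mitochondrial genes with a peak the same. Limits of a deposited peak p under 0.001 and of 50% overlap could change nothing. Every synthetase peak already passed the first, and every shared peak overlapped over 100% of the shorter. No paired analysis was possible because recovered libraries cannot be tied to replicate numbers, so the planned replicate block was not run. Depth of the precipitated libraries is not given.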
